A study of Mus musculus with 30 samples.

Results

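The activators of the circadian clock, Clock, Npas2, Arntl (also called Bmal1) and Arntl2, were followed in the hypothalamus and the whole eye of wild-type (WT) and Per3-/- mice. These 4 genes were taken by name out of 28146 gene names on the arrays, and they were measured by 8 of 41174 probes: 4 for Clock, 1 for Npas2, 1 for Arntl and 2 for Arntl2. All mice were adult males bred on C57Bl/6J, the WT animals being litter mates of the Per3-/- animals, and all had lived through 17 ultradian cycles of 3.5 h light and 3.5 h dark before they were killed during the light phase of the last cycle. The Per3-/- allele carries a cassette in place of an early exon, so Per3 mRNA can still be made. The hypothalamic block, cut around the optic chiasm, gave 8 arrays of each genotype, and the whole eye gave 7 of each. Replicate numbers were taken to name the mouse, which the labels do not state. By these numbers 14 mice have an array of both tissues, and all comparisons within mice rest on this reading.

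The proteins of these genes share a basic helix-loop-helix and PAS domains and act in pairs. CLOCK, or its paralogue NPAS2, joins BMAL1, the product of Arntl, on E-box sequences and switches on the Per and Cry genes, whose products then shut the pair down. Arntl2 is a paralogue of Arntl. REV-ERB alpha, the product of Nr1d1, and the ROR receptors repress and activate Arntl, and Dbp is a direct E-box target with a deep daily rhythm. Because all mice were killed at a single time, the arrays give levels at that time and no rhythm.

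The probes of Clock lie far apart on its transcript, which matters for the tissue comparison that follows. On assembly mm9, all 4 sit on the minus strand of chromosome 5. Probe A_52_P161365 (chr5:76683410-76683469) starts at base 755 of the reference transcript, whereas A_52_P334677 (chr5:76641773-76641832) and A_52_P334670 (chr5:76641377-76641436) start at bases 6847 and 7243, towards its 3′ end. Probe A_52_P279391 (chr5:76664578-76664637) was designed on a separate cDNA clone, where it starts at base 1980, and lies on the genome between the early and the late probes. Of the 3 reading frames of its 60 bases, the early probe and A_52_P334670 have 1 without a stop triplet each, and A_52_P279391 and A_52_P334677 have 0. The array files give no exon or coding annotation. The sequences of the early Clock probe and of the Arntl and Arntl2 probes, which also keep 1 open frame each, are shown as the files give them, 5′ to 3′ on the strand of the transcript. Capitals mark the whole codons of the frame without a stop triplet.
Clock A_52_P161365: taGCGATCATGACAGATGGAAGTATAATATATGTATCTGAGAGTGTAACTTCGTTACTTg
Arntl A_52_P267651: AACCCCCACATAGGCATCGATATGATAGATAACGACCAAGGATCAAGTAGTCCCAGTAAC
Arntl2 A_51_P163015: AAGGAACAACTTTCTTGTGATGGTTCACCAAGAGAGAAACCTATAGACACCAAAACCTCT
Arntl2 A_52_P61188: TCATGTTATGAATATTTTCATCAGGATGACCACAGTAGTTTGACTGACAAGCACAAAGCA
The early Clock probe and the late A_52_P334670 both hold 35% G and C. The Arntl probe lies at chr7:120456978-120457037 on the plus strand, and the Npas2 probe A_52_P534749 at chr1:39418941-39419000 on the plus strand. The Arntl2 probes lie on the plus strand of chromosome 6, A_52_P61188 at chr6:146771157-146771216 and A_51_P163015 at chr6:146767402-146769054, a span longer than the probe itself.

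The arrays held 1 colour, and a level is given here as the log2 of the processed signal relative to the array's 75th percentile, so that 0 is the signal of a probe at that percentile. Between 68.0% and 80.8% of probes were well above background on an array. As a check of the labels, Per3 itself had a level of −3.46 ± 0.15 (SD, n = 8) in WT hypothalamus and −3.97 ± 0.21 (n = 8) in Per3-/- hypothalamus, with 7 of 8 Per3-/- arrays below all WT arrays, and −3.13 ± 0.39 against −3.58 ± 0.52 (n = 7 each) in the eye. The difference of −0.51 in the hypothalamus had an exact permutation p of 0.000311 and an adjusted p of 0.0657 in limma, and that of −0.45 in the eye an exact permutation p of 0.0921 and an adjusted p of 0.9999. Within slides the exact permutation p in the eye was 0.00926, with Per3-/- mice lower on 4 of 4 slides, and slides took up 90.9% of the spread of Per3 there. Whether this probe lies in the replaced part of the gene was not examined. Of the 10 markers of the hypothalamus, 8 were lower in WT eye than in WT hypothalamus, Vip did not pass the test, and Six6, a transcription factor also of the eye, was higher. All 8 eye markers were higher in the eye. The arrays of each tissue filled 4 slides of their own, so tissue and array run cannot be told apart. In tissue this mixed, fewer cells of a type and less RNA per cell cannot be told apart either.

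With the signals as deposited, every member gene differed between eye and hypothalamus, but the probes of Clock did so in opposite directions. Of the 8 probes, 8 passed the test in WT mice (limma, arrays of 1 mouse treated as correlated, Benjamini-Hochberg adjusted p under 0.05) and 8 in Per3-/- mice, against 75.6% and 77.8% of all probes, so the number called is near that of the array at large. Arntl and both late Clock probes were higher in the eye. The early Clock probe, A_52_P279391, Npas2 and both Arntl2 probes were lower there, although Npas2 and Arntl2 kept that call only without normexp background correction, under which they passed in neither genotype and had the opposite sign in Per3-/- mice. A_52_P279391 kept its call under that correction in WT mice but not in Per3-/- mice (−0.22, adjusted p = 0.262 in limma). The median of all probes was itself 0.16 higher in the eye in WT mice and 0.23 higher in Per3-/- mice. Under normexp correction this median was 0.14 higher in WT and 0.58 higher in Per3-/- mice. That correction started from the median spot signal in the eye and from the mean spot signal in the hypothalamus.

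**Figure D1:**
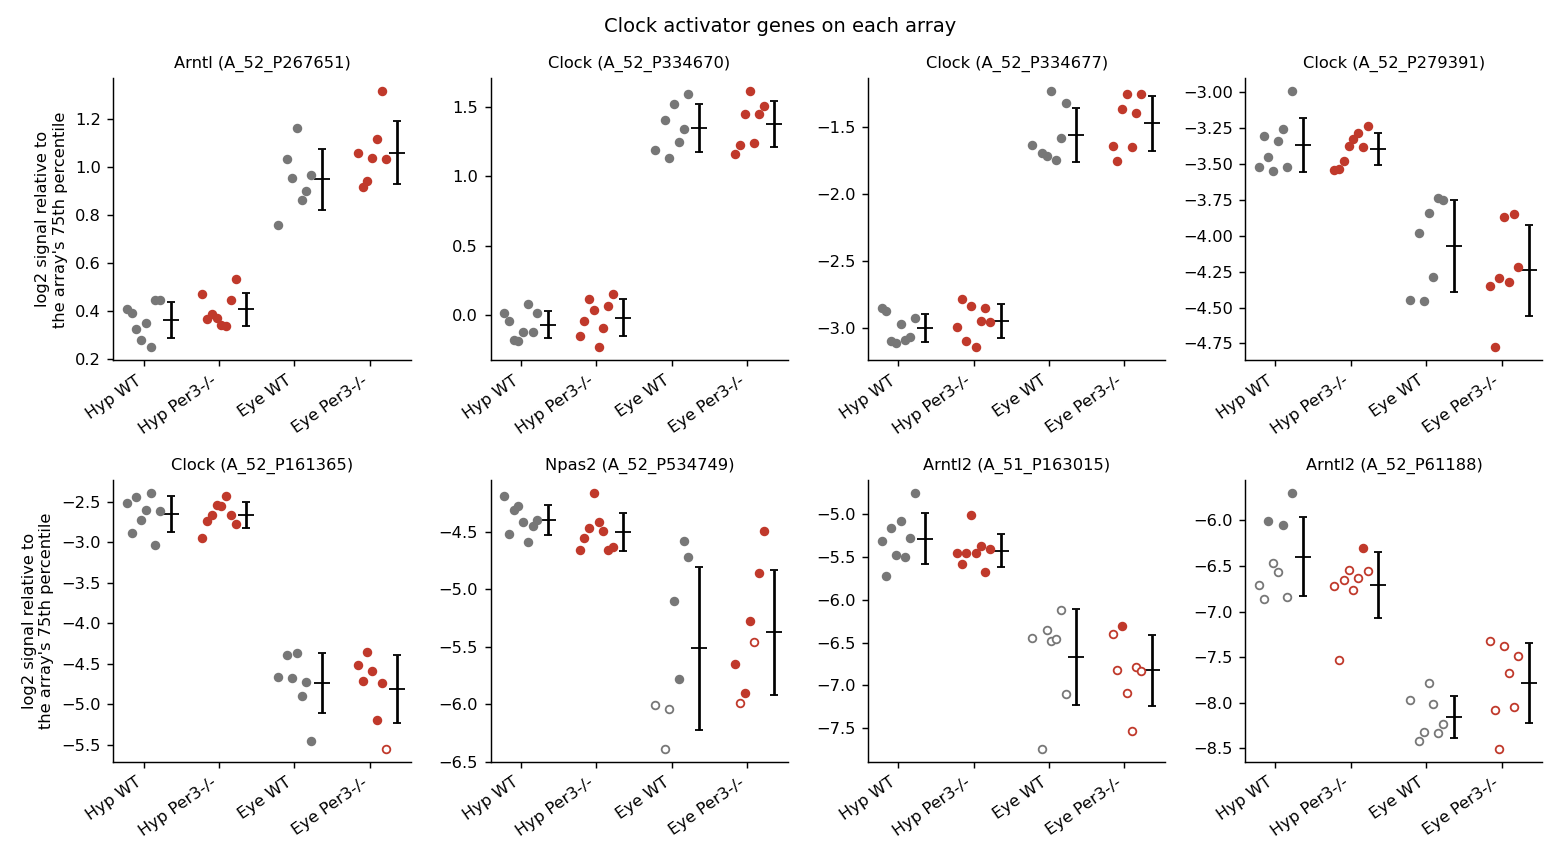
Level of each probe on each array (log2 signal relative to the array's 75th percentile), by tissue and genotype, with filled points for arrays on which the probe was well above background and open points for the others. Black bars show the mean ± SD; the scale differs between panels. The eye lies above the hypothalamus for Arntl and the late Clock probes A_52_P334670 and A_52_P334677 and below it for the others. Under normexp correction, Npas2 and Arntl2 turned in Per3-/- mice, where the median of all probes was 0.58 higher in the eye. WT and Per3-/- arrays overlap in every panel.

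Arntl, whose product is the main partner of CLOCK and NPAS2, ranged from 0.25 to 0.45 (median 0.37) in WT hypothalamus and from 0.76 to 1.16 (median 0.95) in WT eye. In Per3-/- mice it ranged from 0.33 to 0.53 (median 0.38) and from 0.91 to 1.31 (median 1.03). The lowest eye array thus lay above the highest hypothalamus array in both genotypes. Within the 7 WT mice with both tissues the eye was higher by 0.59 ± 0.16 (SD) on the log2 scale, 1.51-fold, and within the 7 Per3-/- mice by 0.66 ± 0.14, 1.58-fold, with 7 of 7 mice on the same side in each. The exact sign-flip p was 0.0156 in both, the smallest that 7 mice allow. In limma the adjusted p was 9.3e-11 in WT and 8.9e-12 in Per3-/- mice, and relative to the median of all probes the fitted difference was 0.43 in both.

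The late Clock probes gave the largest rise towards the eye among the members. A_52_P334670 ranged from −0.19 to 0.08 (median −0.08) in WT hypothalamus and from 1.13 to 1.60 (median 1.34) in WT eye. A_52_P334677 ranged from −3.11 to −2.85 (median −3.02) and from −1.74 to −1.23 (median −1.63). No eye array fell within the hypothalamus range for either probe, and the same held in Per3-/- mice, where A_52_P334670 reached 0.15 at most in the hypothalamus and 1.16 at least in the eye. Within mice the eye was 2.68-fold higher in WT and 2.60-fold in Per3-/- for A_52_P334670, and 2.75-fold and 2.78-fold for A_52_P334677, in 7 of 7 mice each (exact sign-flip p = 0.0156).

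The early Clock probe went the other way. A_52_P161365 ranged from −3.03 to −2.39 (median −2.61) in WT hypothalamus and from −5.45 to −4.37 (median −4.68) in WT eye. Within mice the eye was lower by 2.12 ± 0.41 (SD) in WT on the log2 scale, 4.34-fold, and 4.55-fold in Per3-/-, in 7 of 7 mice each (exact sign-flip p = 0.0156). It was well above background on 13 of the 14 eye arrays, and under normexp correction the fitted difference of −2.09 in WT and −2.15 in Per3-/- mice came to −1.21 and −0.89, both still called. A_52_P279391 ranged from −3.55 to −3.00 in WT hypothalamus and from −4.45 to −3.74 in WT eye, again without overlap, and was lower in the eye 1.62-fold in WT and 1.82-fold in Per3-/- mice. Since these are ratios of the same probe between tissues, they do not compare one probe's level with another's. They show that the Clock probes changed unequally between the tissues. Whether this lies in the transcript, in the probes or in the array runs was not tested. The smallest rise of A_52_P334670 in any mouse was 1.11 and the smallest fall of A_52_P161365 corresponded to −1.69, so the sets of within-mouse differences did not overlap.

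**Figure D2:**
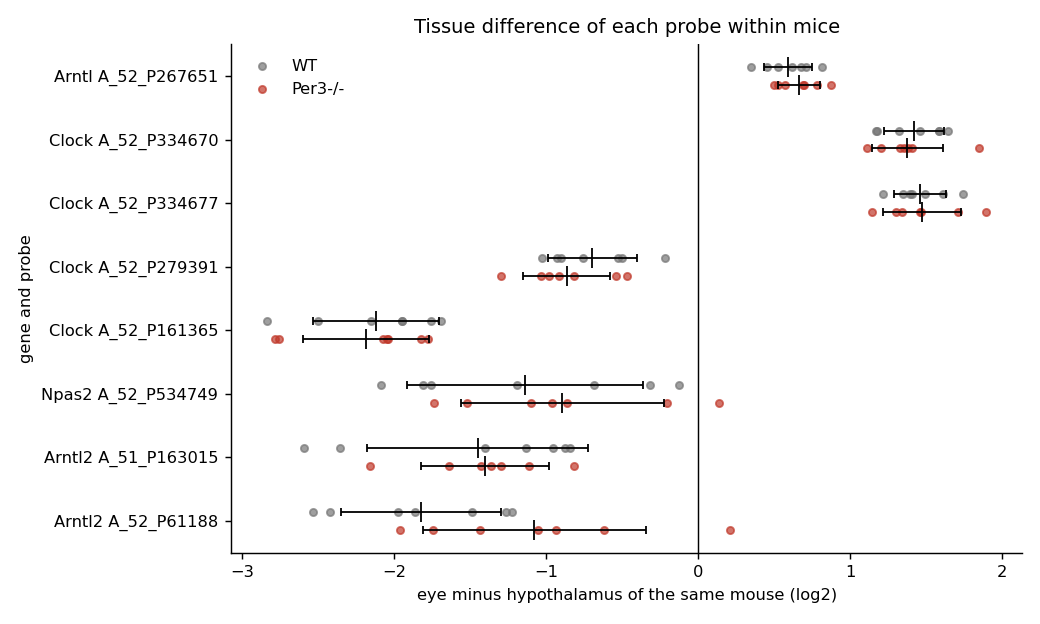
Difference between the eye and the hypothalamus of the same mouse (log2) for each probe, 1 point per mouse, grey for WT and red for Per3-/- (n = 7 each); vertical ticks and bars show the mean ± SD. The late Clock probes lie between 1.11 and 1.90 and the early probe A_52_P161365 between −2.83 and −1.69.

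Npas2, which can take CLOCK's place in the forebrain, varied more between mice in the eye and was lower there. That call was lost under normexp correction in WT mice (−0.29, adjusted p = 0.307 in limma). The direction turned under it in Per3-/- mice (0.23, adjusted p = 0.346 in limma), where the median of all probes was 0.58. Npas2 ranged from −4.59 to −4.19 (median −4.41) in WT hypothalamus and from −6.39 to −4.58 (median −5.78) in WT eye. In Per3-/- mice it ranged from −4.65 to −4.16 (median −4.52) and from −5.99 to −4.50 (median −5.45). The ranges of the tissues thus overlapped in both genotypes, in WT mice only at the edge. Within mice the eye was 2.20-fold lower in WT, in 7 of 7 mice (exact sign-flip p = 0.0156), and 1.86-fold lower in Per3-/-, in 6 of 7 (exact sign-flip p = 0.0312). In the eye, the probe was well above background on 4 of 7 WT and 5 of 7 Per3-/- arrays, and its level moved with the slide. The mean was −5.83 on slide 1 (2 arrays), −6.08 on slide 2, −5.40 on slide 3 and −4.66 on slide 4 (4 arrays each). Slides took up 90.5% of the spread within genotypes, against a median of 33.0% over all probes of the eye. The part of the slide in the tissue difference was not tested, because each slide held 1 tissue. With quantile normalization the fitted WT difference of Npas2 was −1.78, against −1.12. In the hypothalamus slides took up 38.8% of the Npas2 spread, and Npas2 was well above background on all 16 arrays.

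Arntl2 was the dimmest member gene against background, and its fold between the tissues is given on the deposited signals only. A_51_P163015 ranged from −5.73 to −4.75 (median −5.29) in WT hypothalamus, well above background on 8 of 8 arrays. In WT eye it passed background on 0 of 7 arrays and in Per3-/- eye on 1 of 7. On the deposited signals the mean of the hypothalamus was 2.61-fold that of the eye in WT mice by this probe (adjusted p = 1.2e-07 in limma). This is not given as a lower bound, because no WT eye signal passed background and the eye level itself is uncertain. Raising each eye signal to the lowest signal still well above background on its array left the eye mean unchanged at −6.67. No eye signal lay below that floor, so this step could not set a bound. A_52_P61188 passed background on 3 of 8 WT and 1 of 8 Per3-/- hypothalamus arrays and on 0 of 14 eye arrays, so no fold is given for it. The Arntl2 calls were among those lost under normexp correction, where the WT differences were −0.28 (adjusted p = 0.362 in limma) and −0.12 (adjusted p = 0.741).

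No member gene differed between genotypes beyond the spread between mice in either tissue. Of the 8 probes, 0 were called by limma in the hypothalamus, where 0.0413% of all probes were (17 probes), and 0 in the eye, where 0.0194% were (8 probes). None of the 8 had an unadjusted p under 0.05 in limma in either tissue, and the methods' t-test with Benjamini-Hochberg adjustment called 0 in both. WT and Per3-/- ranges overlapped for every probe in both tissues.

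In the hypothalamus, Arntl was 0.36 ± 0.07 (SD, n = 8) in WT and 0.41 ± 0.07 (n = 8) in Per3-/- mice. The difference was 0.04 (95% interval −0.04 to 0.13, adjusted p = 0.991 in limma), and the exact permutation p was 0.235, or 0.0494 when labels were exchanged only within slides, the latter unadjusted for the number of probes. On the 4 slides Per3-/- mice were higher in 4. Slides took up 75.7% of the Arntl spread within genotypes in the hypothalamus, against a median of 25.9% over all probes. The 4 Clock probes differed by −0.03 to 0.05, with 95% intervals that all lay between −0.21 and 0.19. Npas2 differed by −0.11 (−0.27 to 0.05) and the Arntl2 probes by −0.14 (−0.40 to 0.12) and −0.31 (−0.72 to 0.09). Markers of tissue next to the block had median differences of 0.57 (pituitary, 0 of 4 called) and 0.49 (choroid plexus, 0 of 3 called). Markers of striatum and cortex had a median of −0.0037 and ran from −0.36 to 0.72 (0 of 8 called, 1 at an unadjusted p under 0.05 in limma). The part of these tissues in the members' values was not tested.

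In the eye the intervals were wider. Arntl was 0.95 ± 0.13 (SD, n = 7) in WT and 1.06 ± 0.13 (n = 7) in Per3-/- mice, a difference of 0.11 (−0.05 to 0.28, exact permutation p = 0.135). The late Clock probe A_52_P334670 differed by 0.03 (−0.17 to 0.23), the early probe by −0.07 (−0.50 to 0.36), and Npas2 by 0.14 (−0.54 to 0.83). The largest difference was that of A_52_P61188 for Arntl2, 0.37 (−0.02 to 0.75), with Per3-/- arrays higher on 4 of 4 slides and an exact permutation p of 0.0758, or 0.0185 within slides. That probe passed background on 0 of 14 eye arrays, and its adjusted p in limma was 0.9999.

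**Figure D3:**
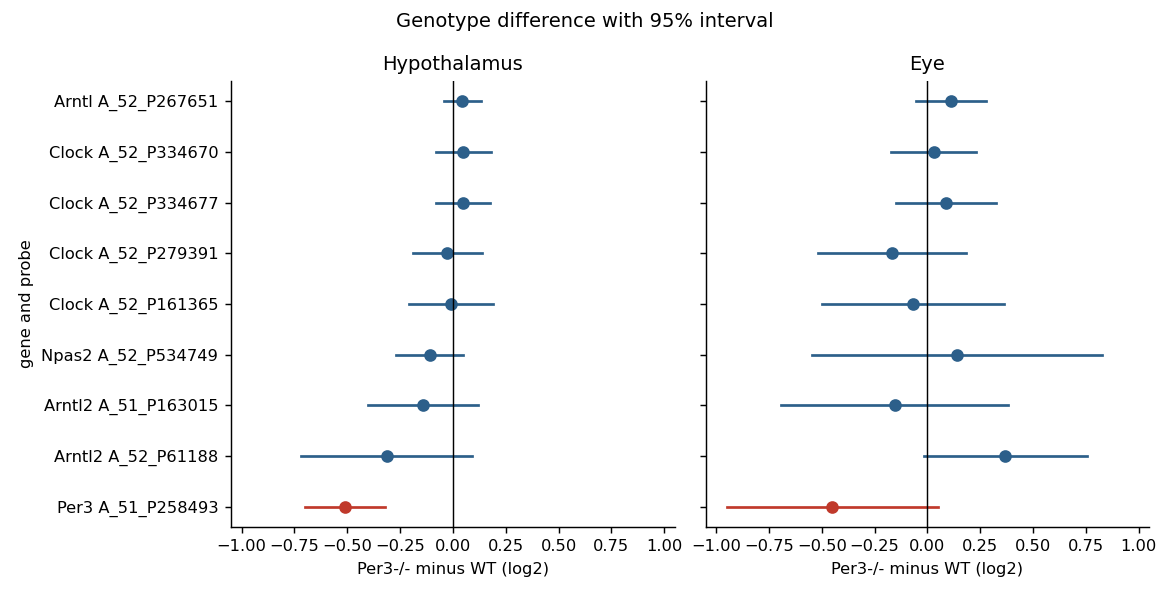
Per3-/- minus WT difference (log2) of each member probe (blue) and of Per3 (red) in the hypothalamus (8 against 8 arrays) and the eye (7 against 7), with 95% intervals from limma. All blue intervals include 0, and that of Per3 in the hypothalamus runs from −0.70 to −0.32.

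The effects of the genotype in the eye and in the hypothalamus were then compared directly. Of the 8 probes, 0 passed the test of this interaction, against 0.00486% of all probes (2 probes). For Arntl the effect in the eye minus that in the hypothalamus was 0.07 (95% interval −0.09 to 0.23), and for Npas2 0.25 (−0.39 to 0.89). The only member probe with an unadjusted p under 0.05 was A_52_P61188 of Arntl2, at 0.69 ± 0.27 (SE), with an unadjusted p of 0.0153 and an adjusted p of 0.9999 in limma.

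No gene of 5 lists that work on or with the activators passed the test of the genotype either. Of 8 repressors of the activator pair, 5 nuclear receptors acting on Arntl, 7 output genes, 12 modifying enzymes and cofactors and 12 bHLH-PAS relatives, 0 passed the test in limma in either tissue, each taken by its brightest probe. At an unadjusted p under 0.05 there was 1 repressor, Per3 itself, and 1 output gene in the hypothalamus, and 2 output genes in the eye, beside 2.82% and 1.80% of all probes. Their median differences lay between −0.09 and −0.01 in the hypothalamus and between −0.10 and −0.04 in the eye, beside −0.01 and 0.00 over all probes. Dbp differed by −0.25 ± 0.10 (SE) in the hypothalamus and by −0.34 ± 0.12 in the eye, with unadjusted p of 0.0181 and 0.0146 in limma, and adjusted p of 0.991 and 0.9999. The other output gene in the eye was Nfil3, which went the opposite way, by 0.23 ± 0.10 (SE, unadjusted p = 0.0321 and adjusted p = 0.9999 in limma). Between tissues, 6 of 8 repressors were higher and 1 lower in WT eye (5 and 0 with quantile normalization). With the signals as deposited 75.6% of all probes were called in WT mice, 17327 higher and 13817 lower in the eye. Cry1, a main repressor of the pair, was higher by 1.46 on the log2 scale. Among the bHLH-PAS relatives 6 of 12 were higher and 4 lower in WT eye, with 6 lower under quantile normalization and 2 under normexp. The numbers called in both lists are near the share over all probes. Arnt, the general partner of this protein family, was higher by 1.93, whereas its neuronal paralogue Arnt2 was lower by 4.01. Markers of skeletal muscle (4 of 4) and of the ocular surface (3 of 3) were also higher in WT eye, and their part in the member genes' tissue difference was not tested.

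The mice differed among themselves at this single time, and a family of 34 relations was computed on deviations from the genotype mean: between the members, between Arntl, Clock or Npas2 and Per2, Nr1d1 or Dbp, and of each member between tissues. Each gene stood for its brightest probe, which for Clock was A_52_P334670. Of the 34, 9 had an unadjusted permutation p under 0.05 by Pearson's r. After Benjamini-Hochberg adjustment 0 passed by Pearson's r and 3 by Spearman's rho.

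Clock and Nr1d1 in the hypothalamus passed by rho and, with slide means taken out, also by r, and mice high in Clock tended to be low in Nr1d1. Over 16 mice r was −0.72 (permutation p = 0.00385, adjusted 0.0654) and rho −0.73 (permutation p = 0.00301, adjusted 0.0341). It was −0.58 in WT and −0.79 in Per3-/- mice, and −0.58 without the 2 mice farthest from the median in Clock. With the slide means taken out r was −0.85 (permutation p within slides = 0.00045, adjusted 0.0153). Under normexp correction r was −0.64, and 0 of the 34 relations passed by r or by rho. The other pairs of probes of these genes gave r from −0.59 to 0.39, with the opposite sign in 4 pairs (0.22, 0.25, 0.34 and 0.39). With the slide means taken out these other pairs gave r from −0.45 to 0.36, of which 0.15, 0.16, 0.16, 0.21, 0.34 and 0.36 had the opposite sign. With the other 2 probes of Nr1d1, A_52_P334670 gave r of −0.44 and −0.07, and with the same Nr1d1 probe the other Clock probes gave −0.59, −0.16 and −0.11. The lowest deviation was −0.21 for Clock and −0.40 for Nr1d1 on the log2 scale, and the highest 0.17 and 0.27. In the eye the same pair gave r = −0.33 (permutation p = 0.263, adjusted 0.522), and r was 0.45 with either of the other Nr1d1 probes.

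The other relations that passed by rho were with Dbp in the eye, and they too were lost under normexp correction. Clock and Dbp gave r = −0.72 (permutation p = 0.00625, adjusted 0.0708) and rho = −0.77 (adjusted 0.0341), and Npas2 and Dbp r = −0.81 (permutation p = 0.00303, adjusted 0.0654) and rho = −0.79 (adjusted 0.0341), each over 14 mice. Npas2 was well above background on 9 of these 14 arrays, and Clock A_52_P161365 gave r of 0.30 with Dbp, where the other Clock probes gave −0.80 and −0.62. Without the 2 mice farthest from the median, r was −0.61 and −0.85. Both weakened with the slide means taken out, to −0.46 and −0.36, with adjusted p of 0.500 and 0.677 by permutation within slides. Taken the same way, Clock A_52_P161365 gave −0.64 with Dbp, A_52_P279391 −0.56 and A_52_P334677 −0.36. In the hypothalamus Npas2 and Dbp ran the other way, with r = 0.53 (permutation p = 0.0345, adjusted 0.181). Arntl and Clock gave r = 0.31 in the hypothalamus (permutation p = 0.261, adjusted 0.522) and 0.37 in the eye (permutation p = 0.214, adjusted 0.519). The level of Arntl in a mouse's eye and hypothalamus gave r = 0.03 over 14 mice (permutation p = 0.932, adjusted 0.961), that of Clock −0.09 and that of Arntl2 −0.24. Npas2 gave r = −0.55 between the tissues (permutation p = 0.0447, adjusted 0.181), which turned to 0.30 with the slide means taken out.

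**Figure D4:**
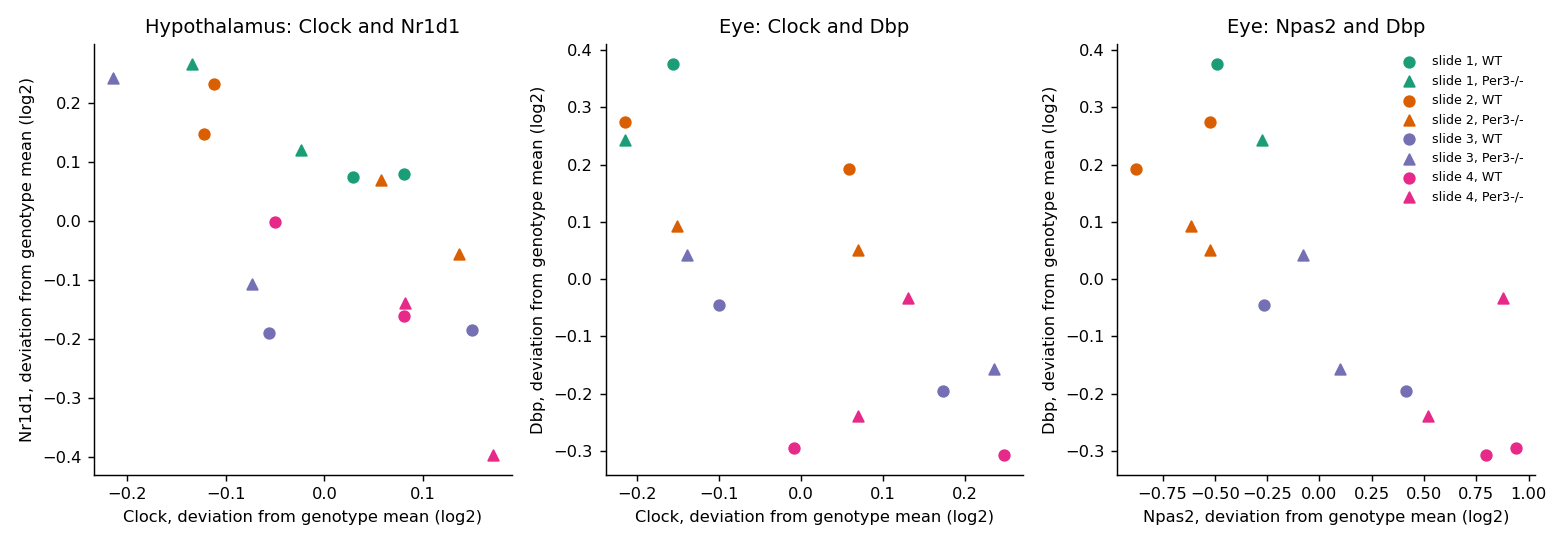
Deviation of each mouse from its genotype mean (log2) for Clock and Nr1d1 in the hypothalamus (16 mice), and for Clock or Npas2 and Dbp in the eye (14 mice each); colours mark the slide, circles WT and triangles Per3-/-. Nr1d1 falls as Clock rises in the hypothalamus (r = −0.72), and in the eye panels slides 1 and 2 lie above 0 in Dbp and slide 4 below it, while for Npas2 the order is the reverse.

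The genes whose pattern across the mice was most like each member are given as a description over 16 hypothalamus or 14 eye arrays, out of the 27154 and 27892 probes that passed background on all arrays of a tissue. In the hypothalamus Arntl was followed most closely by Sfrs12 (r = 0.86), Snupn, Hsp90ab1, Zfp51 and Spcs3 (r = 0.81), Clock by Bbs5 (r = 0.88), Fbxo11, Dtymk, Snrnp48 and Hexim1 (r = 0.81), and Npas2 by Gnal (r = 0.91), Ndst1, Cryl1, Ednrb and Gpatch8 (r = 0.80). For Npas2 in the hypothalamus, 90% of all probes had an r between −0.46 and 0.53. With the slide means taken out, Gnal gave 0.87 and Bbs5 0.92. The genes nearest to Arntl came down, Sfrs12 to 0.68, Snupn to 0.66, Hsp90ab1 to 0.45, Zfp51 to 0.56 and Spcs3 to 0.48. In the eye Arntl was followed by Peli2 (r = 0.85), Insm1, Ttll1, Agpat5 and Akap11 (r = 0.83), and Clock by Arhgap26 (r = 0.94), Dido1, Larp1, Atad2b and Clasp1 (r = 0.92). Npas2 in the eye, which was not well above background on every array, had Slc18a1 (r = 0.98), 1700010I14Rik, Magel2 and Pomt2 (r = 0.97) among the nearest to it. With the slide means taken out Slc18a1 gave 0.85, 1700010I14Rik 0.79, Magel2 0.72 and Pomt2 0.80. In the eye, 29.97% of all probes had an r over 0.5 in size with Npas2, against 5.36% with Arntl.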

How the data were processed

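Gene expression was measured on 30 arrays of 60-base probes with 1 dye (Cy3), 1 per mouse and tissue. Per the file headers, the deposited intensity of each spot is the processed signal of Agilent's Feature Extraction software, background-subtracted and detrended, with no scaling between arrays. A value table from the authors holds log2 values. In 99.9% of cases (1 probe on 1 array, within 0.01) these equal the log2 signal less the 75th percentile of its array, centred on the median of that probe in its tissue. They served as an alternative.

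Probe signals were averaged over spots, leaving out spots marked uneven or as outliers (at most 91 an array), taken to log2, and set relative to the array's 75th percentile. Members were the probes whose gene name in the hypothalamus files was Clock, Npas2, Arntl or Arntl2, matched in the eye by probe name. Positions are those of the files (mm9). The members and the gene lists were chosen with earlier results of these data known. Other genes named were Per3, list members, and for Arntl, Clock and Npas2 the 5 genes of highest r in each tissue, of which 1 is not reported here.

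Differences were tested with limma 3.58.1 in R 4.3.3 over all 41174 probes with Benjamini-Hochberg adjustment (threshold 0.05). Genotypes were compared within a tissue, and tissues and the interaction in a single fit of the 30 arrays. In that fit arrays of the same genotype and replicate number, taken as 1 mouse, were a random block (correlation 0.059). The code was tested on simulated data. Single probes were compared by two-sided exact permutation and sign-flip tests, and relations by two-sided permutation with 100000 resamples within genotype. The permutations ran in numpy 2.4.6 and scipy 1.17.1 under Python 3.11.15, with tables read by pandas 2.3.3. Alternatives were quantile normalization, normexp (offset 50), a filter on dim probes, outlier spots kept, the deposited log2 values, slide and replicate number as blocks, the methods' t-test, the mean of a gene's probes, no mouse block, and each array left out. Other probes of Clock and Nr1d1 were added after seeing the data. The number of arrays limits the precision.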

Additional observations from a re-analysis of the deposited data

Results flagged for a closer look

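Of 32 groups of values (8 probes in 4 groups), 2 held an array that stood apart from the others by the gap between neighbours, and chance marks about 1 group in 20. Both were Arntl2 in Per3-/- hypothalamus. Replicate 4 had a level of −5.01 by A_51_P163015, above the other 7 arrays. Replicate 2 had a level of −7.54 by A_52_P61188, below the other 7, and there the probe was not well above background.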

How the results depend on the processing

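No member probe was called between genotypes, or for the interaction, under any alternative run. With dim probes left out, A_52_P61188 could not be tested. Leaving out each array in turn kept 8 of 8 calls between tissues in both genotypes. Normexp correction of the background called 5 of 8 in WT and 4 of 8 in Per3-/- mice. It used the median spot signal for the eye and the mean spot signal for the hypothalamus, so its tissue comparison rests on unlike measures. There the tissue difference turned for Npas2 to 0.23 and for Arntl2 to 0.23 (A_51_P163015) and 0.52 (A_52_P61188) in Per3-/- mice, beside a median of 0.58 over all probes. Under this correction the median genotype difference over all probes was −0.07 in the hypothalamus and 0.17 in the eye, against −0.01 and 0.00 without it. Uncalled genotype differences of members also turned under it, to −0.0074 for Clock A_52_P334677 in the hypothalamus. In the eye they turned to 0.34 for Arntl2 A_51_P163015 and to 0.29, 0.16 and −0.0027 for Clock A_52_P161365, A_52_P279391 and A_52_P334670. With an array left out, uncalled differences close to 0 ranged across it: −0.063 to 0.031 and −0.053 to 0.026 for hypothalamic Clock A_52_P161365 and A_52_P279391, and −0.19 to 0.054, −0.010 to 0.070 and −0.0060 to 0.30 for Clock A_52_P161365, A_52_P334670 and Npas2 of the eye. The cause was not tested. With the slide mean taken out, 1 of 34 relations passed by r. By other probes, chosen after seeing the data, r of Clock with Nr1d1 in the hypothalamus turned to 0.25, 0.39, 0.22 and 0.34 in 4 pairs of probes, and that of Clock A_52_P161365 with Dbp in the eye to 0.30. With the slide means also taken out, the other pairs of Clock with Nr1d1 ran from −0.45 to 0.36, and A_52_P161365 with Dbp gave −0.64.

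With the replicate number as a block, 0 member probes were called in either tissue, and calls over all probes went from 17 to 5 (hypothalamus) and from 8 to 1 (eye). The numbers were not taken to pair the genotypes, since correlations of same-numbered arrays ranged from −0.20 to 0.40 (hypothalamus) and from 0.0020 to 0.68 (eye), although in the eye 5 of 6 were at least 0.32 and the own number was the best match in 4 of 6. Same-numbered arrays of a tissue always lay on the same slide, and the part of the slide in these correlations was not tested. Normexp gave 10 and 4 calls over all probes and 0 for the interaction (1058 at an unadjusted p under 0.05), and quantile normalization 1 for the interaction, against 2. The share of called probes higher in Per3-/- eye than hypothalamus was 57.0%, or 46.7% with quantile normalization and 69.6% with normexp.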
